A study of Mus musculus with 4 samples.

Results

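The receptors for IL-1, IL-18, IL-12 and IL-23 were followed through small intestinal lamina propria cells of WT and A20ZF7 mice. The 9 receptor genes, Il23r, Il12rb1, Il12rb2, Il1r1, Il1r2, Il1rl1, Il1rap, Il18r1 and Il18rap, were chosen by name and matched by gene ID, and all 9 were among the 31950 gene IDs present in both gene expression libraries. A20ZF7 mice are homozygous for a knock-in that abolishes the motif in the seventh zinc finger of A20, the product of Tnfaip3, with which A20 binds linear (M1) ubiquitin. Cells came from the proximal small intestine of 12-week-old mice, were enriched for T cells and innate lymphoid cells (ILCs) by negative selection, and were profiled by 5′ single-cell RNA-Seq. Each genotype gave 1 gene expression library made from 2 pooled mice, so the genotypes could not be tested against each other and no p-value was calculated. The libraries also listed different sets of gene IDs, 33696 in WT and 32285 in A20ZF7, so the gene lists differed along with genotype. The part of this in the differences between the libraries was not tested. The intervals below are 95% intervals and cover counting error only.

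These cytokines are made mainly by myeloid, stromal and epithelial cells and tell lymphocytes which effector program to run. IL-23 is read by IL-23R paired with IL-12Rβ1 and sustains type 3 cells, which make IL-17 and IL-22, and IL-12 is read by IL-12Rβ2 paired with the same IL-12Rβ1 chain and drives IFN-γ production. IL-1, IL-33 and IL-18 bind IL-1R1, ST2 (the product of Il1rl1) and IL-18R1. IL-1R1 and ST2 share the accessory chain IL-1RAP, IL-18R1 pairs with the product of Il18rap, and IL-1R2 binds IL-1 without signaling and so acts as a decoy. The receptors with a TIR domain signal through MyD88 to linear ubiquitin chains and NF-κB, the pathway that A20 restrains.

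In the GRCm38 annotation, Il1r2 (chromosome 1, 40074079 to 40125231), Il1r1 (40225080 to 40317257), Il1rl1 (40429570 to 40465415), Il18r1 (40465552 to 40500854) and Il18rap (40515362 to 40551705) lie in this order on the plus strand, with Il1rl2, the IL-36 receptor gene, between Il1r1 and Il1rl1. Only 136 bases separate the end of Il1rl1 from the start of Il18r1. Il12rb2 (chromosome 6, 67291318 to 67376188) and Il23r (67422932 to 67491855) are neighbors on the minus strand, 46743 bases apart. Il12rb1 is on chromosome 8 (70808449 to 70821424) and Il1rap on chromosome 16 (26581704 to 26730117), both on the plus strand.

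The promoters of Il23r and Il12rb2 are shown because these neighboring genes were highest in different classes, and those of Il1rl1 because its start sites are known to be used by different cells. Each is the 250 bases before a RefSeq start site in GRCm38.p6, 5′ to 3′ on the strand of the gene. Capitals mark 2 motifs searched on both strands, so that each may also appear as its reverse complement. One is the motif bound by ROR factors, the regulators of type 3 lymphocytes, spelled AGGTCA. The other is the motif bound by GATA factors, which direct type 2 cells and mast cells, spelled AGATAA. The motifs do not overlap each other.
Il23r, chr6:67491856-67492105, minus strand: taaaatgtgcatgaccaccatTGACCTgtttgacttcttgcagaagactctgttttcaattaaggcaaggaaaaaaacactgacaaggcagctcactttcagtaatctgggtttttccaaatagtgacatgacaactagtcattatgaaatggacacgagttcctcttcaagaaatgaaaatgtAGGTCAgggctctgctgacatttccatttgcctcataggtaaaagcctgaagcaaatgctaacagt
Il12rb2, chr6:67376189-67376438, minus strand: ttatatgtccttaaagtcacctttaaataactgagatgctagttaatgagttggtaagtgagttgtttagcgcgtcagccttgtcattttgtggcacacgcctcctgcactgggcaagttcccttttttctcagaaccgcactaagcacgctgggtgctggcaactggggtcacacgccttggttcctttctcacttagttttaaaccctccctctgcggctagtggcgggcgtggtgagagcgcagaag
Il1rl1, first start site, chr1:40429320-40429569, plus strand: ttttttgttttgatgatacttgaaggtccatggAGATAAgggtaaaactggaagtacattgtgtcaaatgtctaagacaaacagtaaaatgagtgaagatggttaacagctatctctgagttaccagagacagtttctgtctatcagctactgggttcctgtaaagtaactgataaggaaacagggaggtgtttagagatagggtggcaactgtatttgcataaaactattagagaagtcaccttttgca
Il1rl1, second start site, chr1:40439379-40439628, plus strand: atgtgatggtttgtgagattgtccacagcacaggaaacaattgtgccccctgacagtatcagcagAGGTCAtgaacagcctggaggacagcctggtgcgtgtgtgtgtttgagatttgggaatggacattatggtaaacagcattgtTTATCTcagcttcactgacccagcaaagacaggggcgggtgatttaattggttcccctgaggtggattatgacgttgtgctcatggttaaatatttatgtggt
The Il23r promoter held 2 ROR-binding motifs, which 14.03% of 32841 mouse promoters of this length hold at least once. Both Il1rl1 promoters held 1 GATA motif, found in 9.99% of promoters, and the second also held 1 ROR-binding motif. The Il12rb2 window held neither motif, nor the T-box motif TCACACC (3.33% of promoters) or the NF-κB motif (17.6%). RefSeq promoters matched 8 of the 9 genes.

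After filtering, 19883 WT cells with a median of 882 UMIs (unique molecular identifiers, 1 per captured transcript) and 36876 A20ZF7 cells with a median of 952 UMIs remained, of which 19302 and 33285 fell into classes named from their markers. The receptors took no part in the clustering or the naming. The largest lymphocyte cluster without a name held 78 WT and 1248 A20ZF7 cells. Its leading genes, Pclaf, Top2a and Mki67 among them, are those of dividing cells. Proliferating Th17 cells, which the study counts among its Th17 cells, may therefore lie outside the Th17-like class. The class called ILC1 or NK-like carried CD3 transcripts at 1746 UMIs per 1000000 UMIs of the class (CPM) in WT and 1481 CPM in A20ZF7, a T cell level that goes against its label. ILC3-like cells carried CD3 at 425 CPM in WT and 986 CPM in A20ZF7, and ILC2-like cells at 353 and 795 CPM. The part of T cell transcripts in the comparisons of these classes was not tested. The transcript of the targeted gene is kept by the knock-in, so its level cannot check the genotype labels. Among kept cells, 1033 barcodes occurred in both libraries.

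RNA outside cells was measured to stand beside the values that follow. A class value at or below the level outside cells does not show that its cells lacked the transcript. Barcodes with 10 to 99 UMIs, too few for a cell, held receptor transcripts in both libraries, and more of them in A20ZF7. Outside cells, Il23r was at 148.5 CPM in WT and 459 CPM in A20ZF7, Il18r1 at 215 and 484 CPM, Il1r1 at 88.6 and 192 CPM, Il1r2 at 20.2 and 131 CPM and Il18rap at 54.1 and 153 CPM. Il12rb2 went the other way, from 165 to 99.7 CPM. Il12rb1 (14.9 and 27.6 CPM), Il1rl1 (11.1 and 36.0 CPM) and Il1rap (11.1 and 15.9 CPM) were scarce outside cells. Fibroblast-like cells carried CD3 transcripts, which they should lack, at 178 CPM in WT and 613 CPM in A20ZF7.

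**Figure D1:**
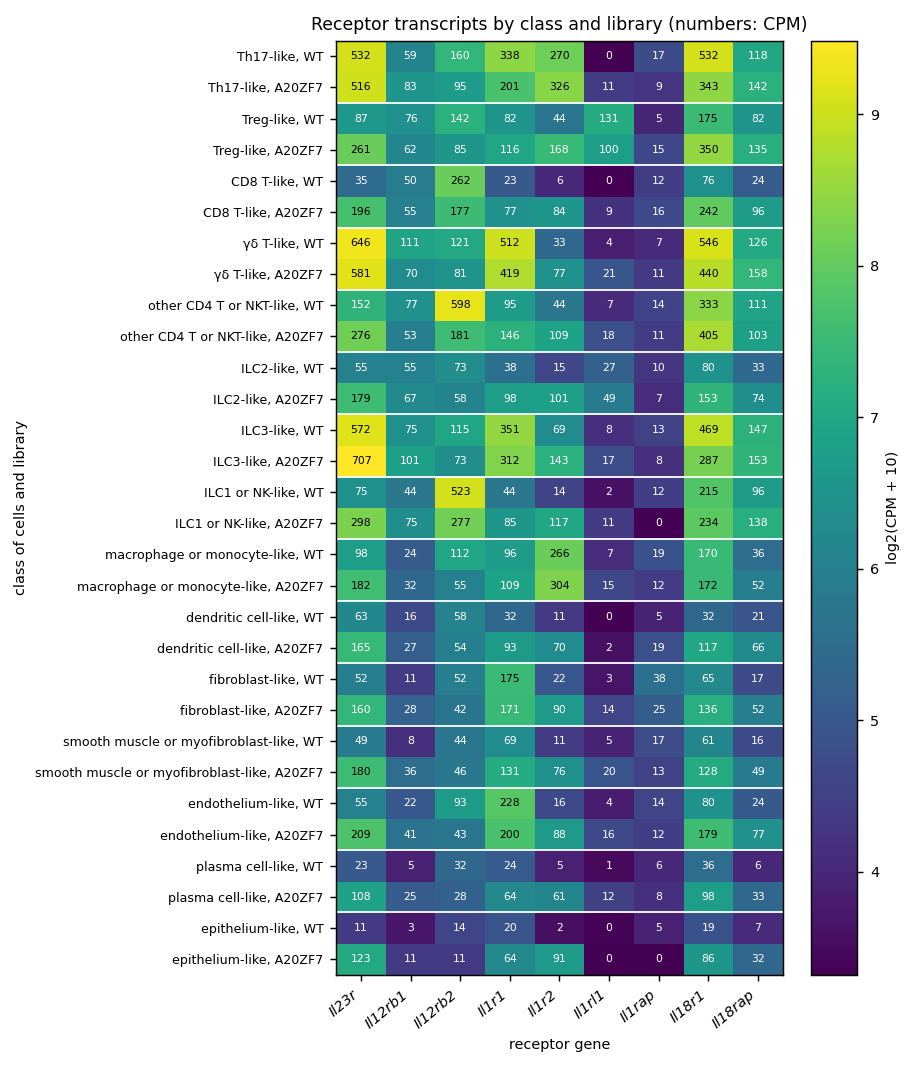
Heat map of the 9 receptor genes (columns) by class and library (rows). Color gives log2(CPM + 10) and the number in each cell the CPM summed over the cells of that class. Among the named classes, Il23r was highest in γδ T-like, ILC3-like and Th17-like cells in both libraries, and Il12rb2 in other CD4 T or NKT-like and ILC1 or NK-like cells in WT.

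Among the named classes, Il23r, the private chain of the IL-23 receptor, was highest in 3 type 3 classes of both libraries. In WT it stood at 646 CPM (575 to 724) in γδ T-like, 572 CPM (536 to 609) in ILC3-like and 532 CPM (409 to 681) in Th17-like cells, and these 3 intervals overlapped. In A20ZF7 it stood at 707 CPM (675 to 740) in ILC3-like, 581 CPM (496 to 677) in γδ T-like and 516 CPM (495 to 537) in Th17-like cells. These were the only 3 named classes above the outside-cell level in both libraries. Other CD4 T or NKT-like cells followed in WT at 152 CPM, level with the RNA outside cells, and every other named WT class of at least 50 cells was between 10.6 CPM in epithelium-like and 98.1 CPM in macrophage or monocyte-like cells. A lymphocyte cluster without a name, led by Defa24 and Defa30, held more Il23r than any named class. It was at 1114 CPM in 77 WT cells and 1452 CPM in 70 A20ZF7 cells, from 57 and 67 UMIs.

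The share of cells with an Il23r UMI was 34.6% in WT ILC3-like and 43.7% in A20ZF7 ILC3-like cells, whose median depth was 720 and 850 UMIs. In fibroblast-like cells, which should lack the receptor, it was 4.61% and 15.3% at a median of 1055 UMIs in both libraries. With each cell thinned to 500 UMIs, the shares were 23.1% and 28.3% in ILC3-like and 1.99% and 7.16% in fibroblast-like cells. ILC3-like cells held 39.4% of all Il23r UMIs of the named classes in WT and 18.5% in A20ZF7. The Th17-like share of Il23r UMIs was 2.58% in WT and 24.0% in A20ZF7, with 133 and 4458 Th17-like cells.

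Il12rb1, the chain shared by both receptors, was spread more evenly over lymphocytes and was low outside them. Its WT levels ran from 111 CPM (82.3 to 145) in γδ T-like through 77.3 CPM in other CD4 T or NKT-like, 76.4 CPM in Treg-like, 74.9 CPM in ILC3-like and 59.1 CPM in Th17-like to 44.4 CPM in ILC1 or NK-like cells. The intervals of the neighbors in this order overlapped. In A20ZF7 it was highest in ILC3-like cells at 101 CPM (89.2 to 114) and Th17-like cells at 83.1 CPM (74.95 to 92.0). Fibroblast-like cells held 10.9 CPM in WT and 28.2 CPM in A20ZF7, close to the RNA outside cells.

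Il12rb2, the private chain of the IL-12 receptor, was carried by other classes than Il23r. In WT it reached 598 CPM (562 to 637) in other CD4 T or NKT-like and 523 CPM (457 to 596) in ILC1 or NK-like cells, followed by 262 CPM (227 to 300) in CD8 T-like and 161 CPM (96.7 to 251) in Th17-like cells. Il23r in the first 3 of these classes was 152, 74.7 and 34.7 CPM. In A20ZF7 the same 3 classes were highest for Il12rb2, at 181 CPM (160 to 205) in other CD4 T or NKT-like, 277 CPM (181 to 406) in ILC1 or NK-like and 177 CPM (159 to 196) in CD8 T-like cells. Type 3 cells held less of it: ILC3-like cells held 115 CPM in WT and 72.5 CPM in A20ZF7, both under the outside-cell level, although WT cells of hashtags 7 and 8, which marked the WT mice, held 148.5 and 206 CPM, the latter above the 165 CPM outside cells.

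Il1r1, the signaling receptor for IL-1, was shared by type 3 lymphocytes and the stroma. WT γδ T-like cells stood at 512 CPM (448 to 581), ILC3-like at 351 CPM (323 to 380), Th17-like at 338 CPM (241 to 460), endothelium-like at 228 CPM (195 to 264) and fibroblast-like at 175 CPM (166 to 185). In A20ZF7 the corresponding levels were 419, 312, 201, 200 and 171 CPM. Of these, the A20ZF7 fibroblast-like value was below the outside-cell level of its library, 192 CPM (168 to 218). The A20ZF7 Th17-like and endothelium-like values lay within that outside-cell interval. Fibroblast-like cells held the largest part of Il1r1 UMIs in named classes, 43.1% in WT and 39.1% in A20ZF7, and were the largest class. Within the stroma Il1r1 was uneven. It was at 367 CPM (WT) and 320 CPM (A20ZF7) in the second largest endothelium-like cluster against 109 and 152 CPM in the largest one, and at 269 and 216 CPM in a fibroblast-like cluster led by Mmp10, Igfbp3 and Saa3.

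Il1r2, the decoy receptor, marked Th17-like and macrophage or monocyte-like cells. It was at 270 CPM (185 to 382) in WT and 326 CPM (309 to 343) in A20ZF7 Th17-like cells, and at 266 CPM (219 to 320) and 304 CPM (279 to 331) in macrophage or monocyte-like cells. The next WT class, ILC3-like cells, was at 69.0 CPM (57.0 to 82.8). WT γδ T-like cells, with Il23r and Il1r1 levels above those of Th17-like cells, held Il1r2 at 32.5 CPM (18.2 to 53.6), below the Th17-like interval.

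Il1rl1, the receptor for IL-33, was rare. Mast-like cells had the highest level, 860 CPM in WT and 734 CPM in A20ZF7, but from 4 cells with 4 UMIs and 29 cells with 20 UMIs. Treg-like cells followed at 131 CPM (83.9 to 195) in WT and 99.7 CPM (85.2 to 116) in A20ZF7. ILC2-like cells, a textbook target of IL-33, stood at 26.8 CPM (20.4 to 34.6) and 48.6 CPM (40.03 to 58.4). They were not uniform: an ILC2-like cluster of 633 WT cells held 95.1 CPM, while the larger one of 1587 WT cells held 4.24 CPM, from 7 UMIs. The former, which held most A20ZF7 cells, was at 48.3 CPM there. WT Th17-like, CD8 T-like and dendritic cell-like cells held no Il1rl1 UMI, where 3 UMIs would be 25.4, 3.85 and 15.8 CPM.

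Il1rap, the accessory chain of IL-1R1 and ST2, was found mostly in fibroblast-like cells, at 37.6 CPM (33.3 to 42.4) in WT and 25.2 CPM (22.6 to 27.9) in A20ZF7. These held 60.5% and 57.7% of its UMIs in named classes. In each lymphocyte class it was between 0 and 16.9 CPM in both libraries, around the outside-cell levels of 11.1 and 15.9 CPM. In the named lymphocyte classes with the highest Il1r1, Il1rap rested on few UMIs. In WT and A20ZF7 these were 3 and 3 in γδ T-like, 22 and 21 in ILC3-like and 2 and 41 in Th17-like cells. The part of RNA outside cells in these values was not tested, so they do not show that Il1rap was absent there.

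Among the named classes, Il18r1, the ligand-binding chain of the IL-18 receptor, was highest in γδ T-like, Th17-like and ILC3-like cells in WT. The unnamed cluster led by Defa24 held Il18r1 at 821 CPM in WT and 759 CPM in A20ZF7, from 42 and 35 UMIs. WT levels were 546 CPM (481 to 618) in γδ T-like, 532 CPM (409 to 681) in Th17-like, 469 CPM (437 to 503) in ILC3-like, 333 CPM (306 to 362) in other CD4 T or NKT-like, 215 CPM (173 to 263) in ILC1 or NK-like and 175 CPM (120 to 247) in Treg-like cells. The last 2 were not above the 215 CPM outside WT cells. The first 3 intervals overlapped. In A20ZF7 the levels were 440, 343, 287, 405, 234 and 350 CPM, all below the 484 CPM outside cells. Its partner Il18rap followed the same classes at lower counts, with 147 and 153 CPM in ILC3-like, 126 and 158 CPM in γδ T-like and 118 and 142 CPM in Th17-like cells of WT and A20ZF7. Outside cells Il18rap was at 54.1 CPM in WT and 153 CPM in A20ZF7, so the A20ZF7 ILC3-like and Th17-like values were not above it.

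Setting the libraries side by side, a member and class pair was compared where both libraries had at least 50 cells, the pair at least 20 UMIs in all, and the higher library at least 20 CPM. Of 105 such pairs, 47 were at least 2-fold higher in A20ZF7, against 9.08% of 95984 gene and class pairs over all genes. The CPM limit applied to the higher library alone, so some of the 47 entered only through their A20ZF7 level. Il1r2 in CD8 T-like cells, with 5 UMIs (6.42 CPM) in WT, was one of these. Such pairs were not counted apart, so the 47 is a description only. Only 3 pairs were at least 2-fold lower, against 4.72% over all genes, and all 3 were Il12rb2. In 43 of the 47 higher pairs, the A20ZF7 level was at or below the level outside cells in that library. When the outside level, scaled by the immunoglobulin level of the class relative to that outside cells, was taken off, 33 pairs were higher (9.71% over all genes) and 7 lower (6.08%). This scaling could not work in plasma cell-like cells, which make immunoglobulin, and without them the counts were 33 and 7 of 98 pairs. In most other classes it took off little. In fibroblast-like cells, which should lack Il23r, the scaling factor was 0.062 in WT and 0.097 in A20ZF7. Their Il23r went from 51.7 and 160 CPM to 42.5 and 115 CPM, still past 2-fold. Whether the pairs still higher were free of RNA outside cells was not tested. In WT dendritic cell-like cells the scaling factor was 1, and every receptor fell to the floor of 3 UMIs (15.8 CPM). For Il18rap in epithelium-like cells both libraries were at their floors. For Il23r, Il1r2 and Il18r1 in epithelium-like cells the WT value was set to its floor (1.45 CPM). The dendritic cell-like pairs and these epithelium-like pairs stay in the counts, and nothing is read from them.

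The counts differed by class. Of the members compared, 5 of 7 were at least 2-fold higher in CD8 T-like (4.87% of all genes compared there), 4 of 8 in ILC2-like (4.20%), 5 of 8 in fibroblast-like (5.28%), 6 of 7 in plasma cell-like (34.3%) and 3 of 8 in Treg-like cells (8.05%). It was 6 of 8 in smooth muscle or myofibroblast-like (7.28%) and 4 of 7 in endothelium-like cells (6.88%). In dendritic cell-like cells it was 5 of 6 (18.1%) and in epithelium-like cells 5 of 5 (22.9%). By contrast, 1 of 7 was higher in ILC3-like (4.75%), 1 of 7 in other CD4 T or NKT-like (2.81%) and 1 of 7 in γδ T-like cells (3.99%). ILC1 or NK-like cells had 1 of 6 (4.9%) and macrophage or monocyte-like cells none of 7 (4.88%). None of the receptors was past 2-fold in Th17-like cells in either direction (9.37% and 8.46% of all genes). In plasma cell-like cells, which should lack these receptors, Il23r went from 23.0 to 108 CPM. The ILC2-like class was made of different clusters, with 71.5% of WT cells in one and 97.2% of A20ZF7 cells in another.

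**Figure D2:**
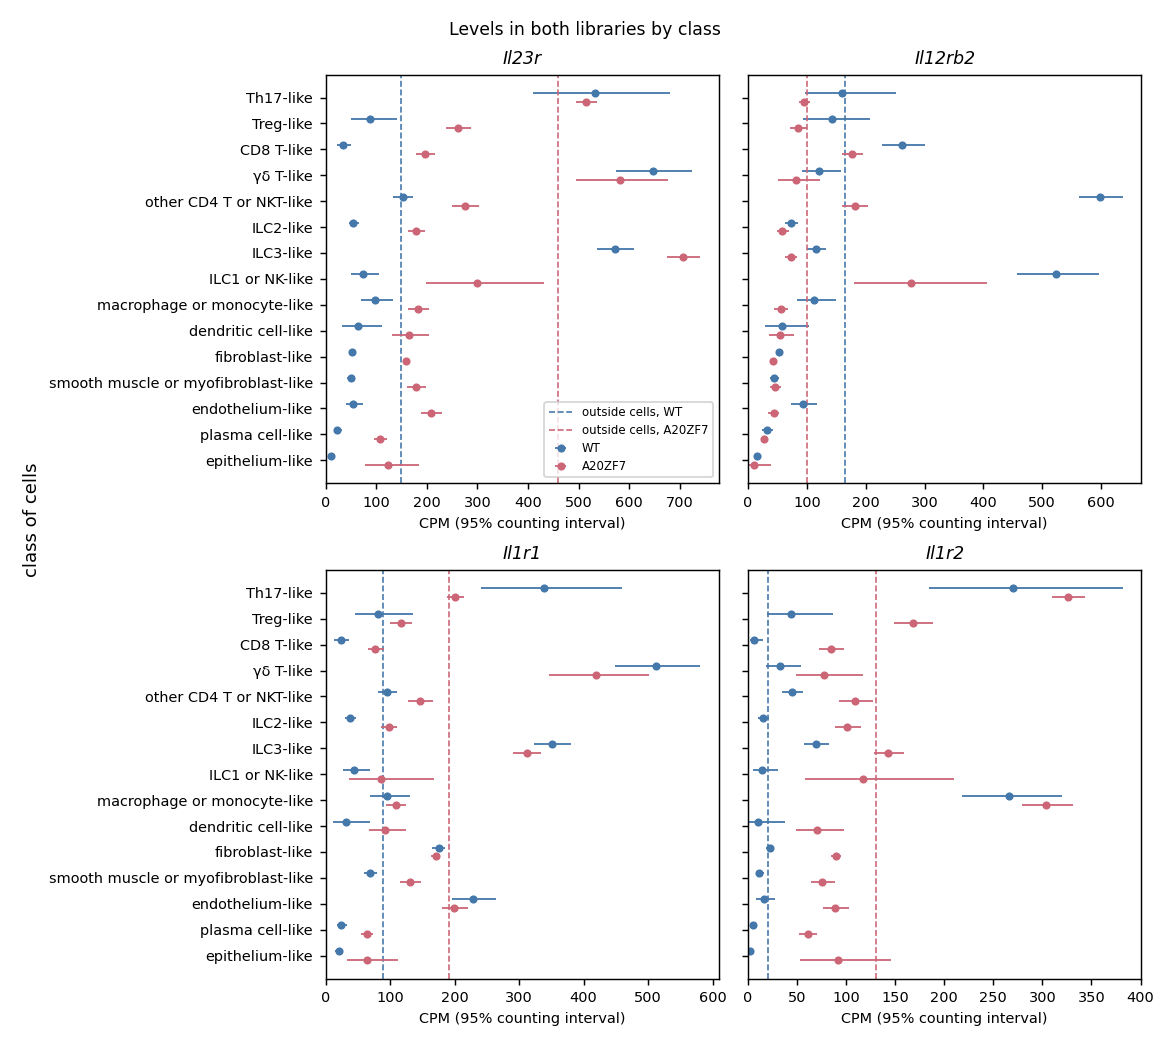
CPM of Il23r, Il12rb2, Il1r1 and Il1r2 by class in the WT (blue) and A20ZF7 (red) libraries, with 95% counting intervals, and dashed lines at the level outside cells in each library. For Il23r only Th17-like, γδ T-like and ILC3-like cells lie to the right of the dashed line in both libraries, and Il12rb2 in other CD4 T or NKT-like cells stands at 598 CPM in WT and 181 CPM in A20ZF7.

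Il23r showed both sides of this. It went from 34.7 to 196 CPM in CD8 T-like cells (ratio 5.67, 3.84 to 8.71), from 51.7 to 160 CPM in fibroblast-like cells (3.08, 2.76 to 3.45) and from 55.0 to 179 CPM in ILC2-like cells (3.25, 2.65 to 4.01), each below the 459 CPM outside A20ZF7 cells. Outside cells it was 3.09-fold higher, and the median ratio over the 15 classes compared was 3.08. In the 3 classes with the most Il23r the libraries were close, with ratios of 1.24 (1.14 to 1.34) in ILC3-like, 0.969 (0.754 to 1.26) in Th17-like and 0.899 (0.739 to 1.09) in γδ T-like cells. Within single ILC3-like clusters it went from 494 to 709 CPM in the one that held most A20ZF7 cells and from 601 to 650 CPM in the one that held most WT cells, and within ILC2-like clusters from 53.1 to 177 CPM and from 55.7 to 249 CPM.

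Il12rb2 was the member with lower values in A20ZF7. In other CD4 T or NKT-like cells it went from 999 UMIs in 2317 WT cells to 267 UMIs in 2018 A20ZF7 cells, 598 to 181 CPM, a ratio of 0.303 (0.264 to 0.347), where 2.23% of all genes were at least 2-fold lower. The share of cells with a UMI was 25.5% in WT and 9.96% in A20ZF7 (median depth, 661 and 653.5 UMIs) and in fibroblast-like cells 3.93% and 4.06%. The change lay in the larger of the 2 clusters of this class, from 658 to 192 CPM, while the smaller stood at 60.02 and 70.4 CPM from 10 and 9 UMIs. At the finer clustering resolution of 1.2, 2104 of the 2121 WT and 1792 of the 1858 A20ZF7 cells of the larger cluster fell into clusters without a name. The ratio over the cells that kept the name was 0.926, so the lower value lay in the cells that lost it. The largest unnamed cluster there held 2083 WT and 1217 A20ZF7 cells, so the A20ZF7 cells were split over more than 1 cluster. The part of this difference in make-up in the lower value was not tested. The other 2 lower pairs, macrophage or monocyte-like (112 to 55.2 CPM, where 3.49% of all genes were lower and 4.88% higher) and endothelium-like cells (93.0 to 43.2 CPM), were below the outside-cell level of their library on both sides. The ratio was under 1 in 13 of 14 classes compared, with a median of 0.648, and was 0.604 outside cells. In the unnamed cluster led by Defa24, Il12rb2 went from 704 to 108 CPM (0.154, 0.0472 to 0.394), from 36 and 5 UMIs.

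Il1r2 was at least 2-fold higher in 12 of 14 classes, with a median ratio of 4.85 beside 6.48 outside cells. In 2 of these the point value was above that outside cells in both libraries: Treg-like cells, from 43.7 to 168 CPM (3.84, 1.92 to 8.99), and ILC3-like cells, from 69.0 to 143 CPM (2.07, 1.68 to 2.58). The counting intervals overlapped those outside cells in part: Treg-like cells were at 18.9 to 86.0 CPM in WT, beside 14.3 to 27.7 CPM outside, and at 149 to 189 CPM in A20ZF7, beside 111 to 153 CPM outside. A20ZF7 ILC3-like cells were at 129 to 159 CPM. The Treg-like WT value rests on 8 UMIs, and the ILC3-like ratio was 1.86 with the outside level taken off and 1.89 against WT cells of hashtag 7 alone. For ILC3-like cells the libraries were made of different clusters, with 73.6% of WT cells in one and 96.3% of A20ZF7 cells in another. Within the cluster that held most A20ZF7 cells Il1r2 went from 24.1 to 145 CPM, and within the cluster that held most WT cells from 85.7 to 66.4 CPM, the latter from 5 UMIs in 97 A20ZF7 cells. In Th17-like and macrophage or monocyte-like cells, where Il1r2 was highest, the ratios were 1.21 (0.850 to 1.77) and 1.15 (0.932 to 1.42).

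Lower values under 2-fold also appeared in type 3 cells. Il18r1 in ILC3-like cells went from 469 to 287 CPM (0.612, 0.553 to 0.678), with 452 to 288 CPM within the cluster of most A20ZF7 cells and 475 to 239 CPM within the cluster of most WT cells. With the outside level taken off, Il18r1 in ILC3-like cells was at 451 and 220 CPM, a ratio of 0.488 and so past 2-fold. In Th17-like cells Il18r1 went from 532 to 343 CPM (ratio 0.644) and Il1r1 from 338 to 201 CPM (0.594, 0.433 to 0.837). Each of these moved against the outside-cell level, which was higher in A20ZF7 for both genes. The WT Th17-like class held 133 cells. Its cells of hashtags 7 and 8 held Il1r1 at 231 CPM (106 to 439) and 442 CPM (266 to 690). They held Il18r1 at 385 CPM (216 to 636) and 651 CPM (433 to 941). For both genes the interval of hashtag 7 included the A20ZF7 Th17-like value. In fibroblast-like cells Il1rap went from 37.6 to 25.2 CPM (0.669, 0.569 to 0.786). Over all 105 pairs, 28 had point values above the outside-cell level in both libraries, a limit set after the data had been seen, and 3 of these were past 2-fold, Il12rb2 in other CD4 T or NKT-like and Il1r2 in Treg-like and ILC3-like cells. The share over all genes under this limit was not calculated, so this count describes the receptors alone and sets no pair apart from other genes. The part of RNA outside cells in the pairs below that level was not tested.

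**Figure D3:**
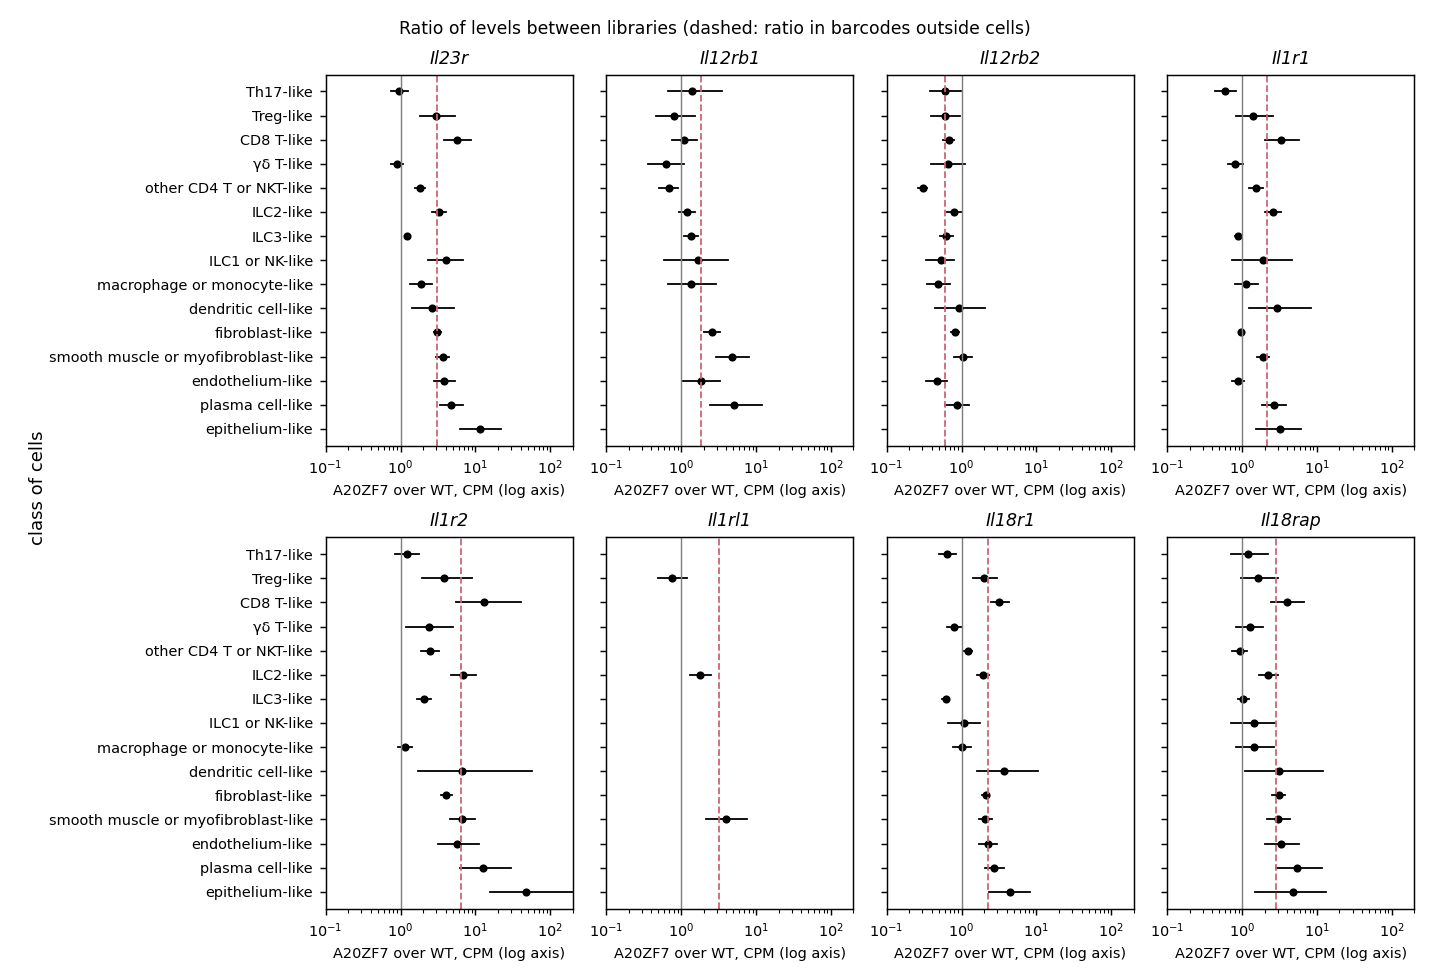
Ratio of A20ZF7 to WT CPM for each receptor by class on a log axis, with 95% counting intervals. Dashed lines give the same ratio outside cells, and Il1rap, compared in 1 class alone, is left out. For Il23r, ratios in ILC3-like, Th17-like and γδ T-like cells sit between 0.899 and 1.24, while the other 12 classes sit between 1.81 and 11.6, on either side of the 3.09 seen outside cells.

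The WT mice gave the one view of spread between animals, since hashtags 7 and 8 marked the cells of each, 4657 and 5457 of those kept. In other CD4 T or NKT-like cells Il12rb2 was at 699 CPM (631 to 772) in one mouse and 638 CPM (579 to 700) in the other, both above the 181 CPM of the A20ZF7 library. Il23r was at 619 and 615 CPM in γδ T-like and at 597 and 506 CPM in ILC3-like cells, and Il1r1 at 336 and 337 CPM in ILC3-like cells. Il18r1 in ILC3-like cells was 425 and 502 CPM, both above the A20ZF7 library's 287 CPM. The remaining WT cells had no call for 1 hashtag, and they were not the same in every value: fibroblast-like cells held Il12rb2 at 107 and 98.3 CPM in the mice, above the 52.1 CPM of the whole WT class. For other CD4 T or NKT-like cells, too, the Il12rb2 values of both mice were above the 598 CPM of the whole WT class. Th17-like cells were too few per mouse (37 and 47 cells) to compare between the mice. Of 67 pairs that could be compared between the mice, 2 were at least 2-fold apart, Il1rl1 in Treg-like cells (224 and 97.3 CPM) and Il1r2 in macrophage or monocyte-like cells (368 and 181 CPM), against 4.50% of 61601 pairs over all genes.

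**Figure D4:**
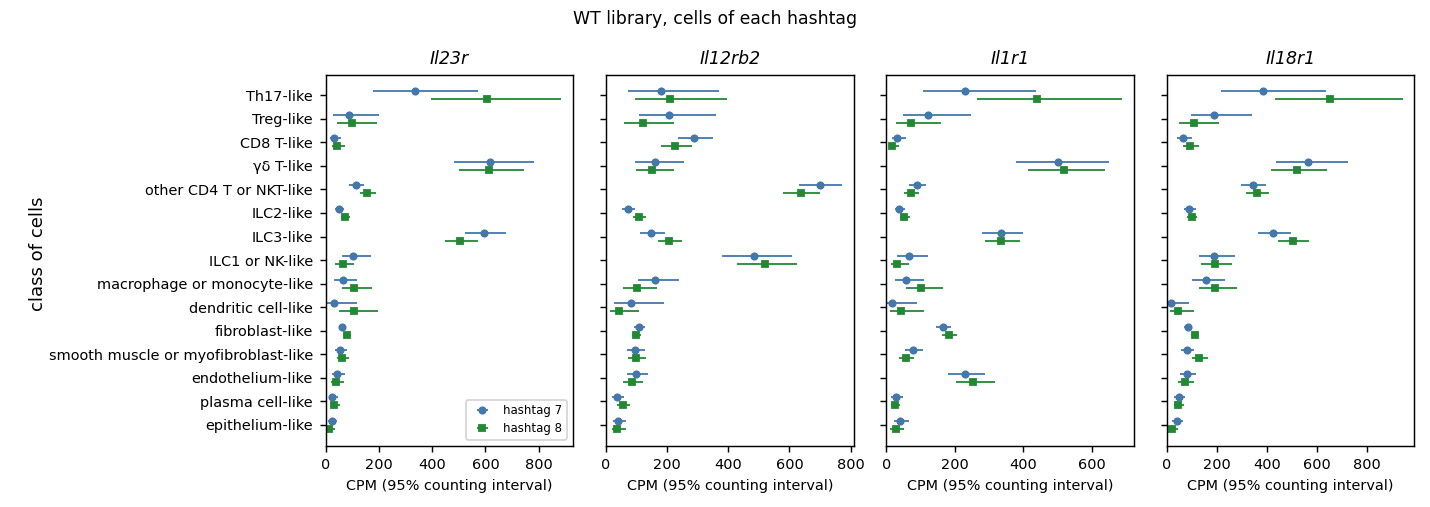
CPM of Il23r, Il12rb2, Il1r1 and Il18r1 by class in the cells of each WT mouse, hashtag 7 (blue circles) and hashtag 8 (green squares), with 95% counting intervals. The values of the mice lie close together in most classes, as with Il12rb2 in other CD4 T or NKT-like cells at 699 and 638 CPM.

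Transcripts of both chains of a receptor were seldom found in the same cell at this depth. Il23r and Il12rb1 occurred together in 157 of 4458 A20ZF7 Th17-like cells (3.52%), where the product of both single shares is 2.90%. In ILC3-like cells they did so in 51 of 1958 WT cells (2.61%, product 2.17%) and 114 of 2621 A20ZF7 cells (4.35%, product 4.03%). Il23r and Il1r1 met in 200 WT ILC3-like cells (10.2%, product 8.25%) and in 64 WT γδ T-like cells (11.5%, product 12.2%). Il12rb2 and Il18r1, whose ligands act together on IFN-γ, met in 157 WT other CD4 T or NKT-like cells (6.78%, product 4.88%) and 71 A20ZF7 cells (3.52%, product 2.39%). Il1r1 and Il1rap met in 36 WT and 78 A20ZF7 fibroblast-like cells, where the products give 44.2 and 59.9 cells. Cells of a class differed in depth, and the part of depth in joint shares above the product was not tested.

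Antibody counts, used for WT alone, did not follow the transcripts. The panel of 138 antibodies held one against IL-23R and one against ST2. The IL-23R antibody had a median of 34 to 41 UMIs in every class, and 35 UMIs both in ILC3-like cells with an Il23r UMI and in those without. The median for ST2 was 11 to 16 UMIs in every class, 11 in ILC2-like and 12 in Treg-like cells. In the same cells the CD31 antibody, picked after its values were seen, had a median of 152 UMIs in endothelium-like cells and 7 to 13 elsewhere. Lineage antibodies separated lymphocytes far less. CD4 had medians of 5 to 6 UMIs in the classes of CD4 T cells and 1 to 3 elsewhere. CD8a had a median of 4 UMIs in CD8 T-like, 5 in dendritic cell-like and endothelium-like cells, and 3 elsewhere. The isotype controls had medians of 5, 5 and 2 UMIs over all named WT cells. No class stood apart for IL-23R or ST2 by more than its quartiles. With lineage antibodies this weak on lymphocytes, the flat counts cannot show whether receptor protein followed its transcript. Whether the IL-23R and ST2 antibodies bound their targets was not tested.

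**Figure D5:**
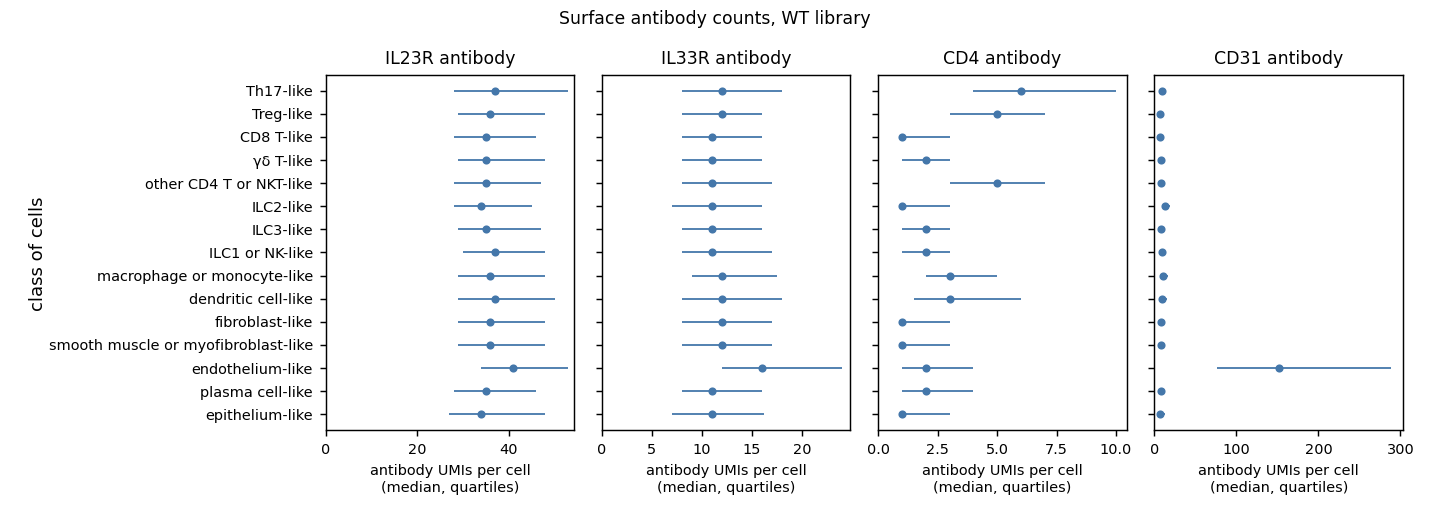
Antibody UMIs per WT cell by class (points, medians, and lines, quartiles) for the antibodies against IL-23R, ST2 (named IL33R in the panel), CD4 and CD31. The IL-23R and ST2 medians are flat across classes, from 34 to 41 and from 11 to 16 UMIs, while CD31 reaches 152 UMIs in endothelium-like cells.

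To find genes with a like pattern, log2(CPM + 10) was correlated with each receptor over 30 points, 15 classes in 2 libraries, for 15138 genes. The points share the libraries and their RNA outside cells, so the correlations are descriptions. Il23r was most like March3 (r = 0.950), Ppp1r14c (0.917) and Cdon (0.906), and Il12rb2 most like Tbx21, which encodes T-bet (0.866), then Usp48 (0.861) and Gimap6 (0.855). Il18r1 and Il18rap were close to each other (0.939) and to Podnl1 (0.944 and 0.942), with Cdon (0.920) next for Il18r1 and Odc1 (0.951) and St6galnac3 (0.942) for Il18rap. Il1rl1 was most like Ky (0.897), Foxp3, which encodes the Treg transcription factor (0.866), and Fgf16 (0.851). Il12rb1 was most like Zap70 (0.959), a kinase of the T cell receptor, Gpr132 (0.957) and Tnfaip3 itself (0.950). Il1r1 was closest to Ablim3 (0.874), Smox (0.866) and Ppp1r14c (0.863), Il1r2 to Traf3 (0.864), Batf (0.815) and Etv6 (0.813), and Il1rap to Dync2h1 (0.827), 2610301B20Rik (0.806) and Il1rl2 (0.803).

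Ligands of these receptors were found in myeloid, stromal and epithelial classes. Of 10 ligand genes, 8 were present in both libraries, and none passed the filter in any T cell or ILC class. Macrophage or monocyte-like cells held Il1b at 486 CPM in WT and 551 CPM in A20ZF7 (ratio 1.13, 0.975 to 1.33). Il12b, the subunit shared by IL-12 and IL-23, was at 1 UMI in 363 WT and 51 UMIs in 1241 A20ZF7 macrophage or monocyte-like cells, 2.39 and 29.3 CPM (12.3, 2.10 to 493), with 0.530 and 2.51 CPM outside cells. Il33 was highest in fibroblast-like cells, 116 CPM in WT and 70.9 CPM in A20ZF7 (0.614, 0.559 to 0.674). Il18 was highest in epithelium-like cells, at 276 CPM in WT and 91.2 CPM in 81 A20ZF7 cells. Il18bp, which neutralizes IL-18, went from 86.1 to 29.3 CPM in macrophage or monocyte-like cells, 1 of 4 antagonists and regulators compared there, where 3.49% of all genes were lower. Of 11 TIR genes in these cells, 2 were higher (4.88% of all genes), Irak3 (23.9 to 71.3 CPM) and Traf6 (21.5 to 47.7 CPM, from 9 UMIs in WT). Irak3 lay below its outside-cell level of 46.7 and 86.3 CPM.

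Downstream of the receptors, 1 of 12 TIR signaling genes compared was at least 2-fold higher in ILC3-like cells and none was lower, beside 4.75% and 3.07% of all genes. Irak3, an inhibitor of the TIR pathway, went from 60.7 to 178 CPM there (2.93, 2.36 to 3.67), beside 46.7 and 86.3 CPM outside cells. Socs3, a feedback inhibitor of STAT3, went from 25.6 to 65.5 CPM (2.56, 1.82 to 3.67) beside 38.7 and 31.0 CPM. Stat4, which relays IL-12 and IL-23, was close in both, at 517 and 547 CPM. In Th17-like cells, where 9.37% of all genes were higher and 8.46% lower, 3 of 13 TIR genes were higher, Irak3 (42.3 to 126 CPM) and Irak4 and Sharpin, each from 1 UMI in WT, and 1 TIR gene, Tab3, was lower (50.7 to 12.1 CPM). In this WT class 3 UMIs are 25.4 CPM, so its Irak3 and Tab3 values also rest on few UMIs. The WT Irak3 value was below the 46.7 CPM outside cells. Stat3, which relays IL-23, was also higher there (254 to 543 CPM), as was Socs1, from 1 UMI in WT, and Il1rl2 was lower (25.4 to 8.60 CPM, from 3 UMIs in WT). In other CD4 T or NKT-like cells, 1 of 10 TIR genes compared was higher and 1 lower, beside 2.81% and 2.23% of all genes. Irak3 was the higher one (30.6 to 87.6 CPM), level in A20ZF7 with the 86.3 CPM outside cells, and Sharpin the lower one (26.4 to 12.2 CPM).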

How the data were processed

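Lamina propria cells of the small intestine were profiled by 5′ single-cell RNA-Seq, with 2 mice pooled per genotype and each mouse hashtagged. The deposited matrices hold UMI counts for each gene in each barcode, with no filter on cells. The authors used Cell Ranger, with 7.1 in the submitters' notes. The header of the gene expression matrices gives 8.0.0 and that of the antibody matrices 7.1.0. The study names mm10 as the reference, but the WT and A20ZF7 gene expression matrices list 33696 and 32285 gene IDs. The antibody matrices of both genotypes held the same values, so antibodies were used for WT alone.

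Python 3.11.15, scanpy 1.11.5, R 4.3.3 and Seurat 5.3.0 were used. Barcodes were kept with at least 200 and at most 2500 genes, at least 500 UMIs and at most 15% mitochondrial counts. WT barcodes with both hashtags were removed (2547). This could not be done for A20ZF7, and other doublets were left in. Of kept cells, 2.92% in WT and 9.74% in A20ZF7 fell into clusters without a name. Clusters were named from markers, with limits that were chosen once the clusters were known. The study gives no clustering resolution.

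UMIs were summed per library and class and given per 1000000 UMIs of the gene IDs both libraries list. Intervals are exact Poisson for CPM, exact conditional for ratios and exact binomial for shares, at 95%. The 3 most similar genes per receptor were named, and pathway genes past 2-fold in the ILC3-like, other CD4 T or NKT-like, macrophage or monocyte-like and Th17-like classes, with an exception that is not reported here. Pathway genes of the other classes were not taken up. Scripts were tested on simulated data. The receptors and lists were chosen with earlier results of these data known.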

Additional observations from a re-analysis of the deposited data

Results flagged for a closer look

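For 3 receptors, the ratio of A20ZF7 to WT lay below 1 in one class and above 1 in another with intervals on opposite sides of 1. Il12rb1 was at 0.686 (0.511 to 0.915) in other CD4 T or NKT-like cells and at 4.74 (2.92 to 8.00) in smooth muscle or myofibroblast-like cells. Il1r1 was at 0.594 (0.433 to 0.837) in Th17-like cells and at 3.33 (2.04 to 5.77) in CD8 T-like cells. Il18r1 was at 0.612 (0.553 to 0.678) in ILC3-like cells and at 3.20 (2.44 to 4.26) in CD8 T-like cells. With 1 library per genotype these differences between classes were not tested. Outside cells the ratios were 1.86, 2.17 and 2.25, and the part of that RNA was not tested.

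The antibodies lay outside the transcript comparisons. The IL-23R antibody had a median of 36 UMIs over all named WT cells and the ST2 antibody 11 UMIs, against 5, 5 and 2 UMIs for the isotype controls, with class medians of 34 to 41 and 11 to 16 UMIs.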

How the results depend on the processing

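The count of pairs at least 2-fold higher in A20ZF7, 47, stayed within 1.5 times under every alternative but one, and was 32 to 39 with WT cells of 1 mouse alone. It was 31 of 87 without plasma cell-like, epithelium-like and dendritic cell-like cells, an alternative chosen after seeing the data. The count of lower pairs, 3, was 5 in cells with at least 1000 UMIs, 7 with the outside-cell level taken off, 11 at 1.5-fold, 5 with no minimum of UMIs, and 4 to 8 with WT cells of 1 mouse alone. Of the 105 pairs, 92 had a value in cells with at least 1000 UMIs or with either mouse alone. With the outside-cell level taken off, 9.71% of pairs over all genes were higher and 6.08% lower. Shares over all genes under the other settings are not given here, so these counts describe the receptors alone. Of the 50 pairs past 2-fold, 36 remained so in the same direction with the outside-cell level taken off (36 of 44 without plasma cell-like cells, a count added after seeing the data), 50 without cell cycle regression and 49 without 344 WT and 562 A20ZF7 cells of high Scrublet score. The scaling factor of this setting was small in most classes, 0.097 in A20ZF7 fibroblast-like cells. Whether the remaining pairs were free of RNA outside cells was not tested. Taking the outside level off turned the direction for Il18r1 in dendritic cell-like cells (0.390, both libraries at the floor of 3 UMIs). The 36 pairs that remained include dendritic cell-like pairs, and Il23r, Il1r2, Il18r1 and Il18rap in epithelium-like cells, whose WT value was set to the floor of 3 UMIs. For Il23r, Il12rb1, Il1r1, Il1r2, Il18r1 and Il18rap in plasma cell-like cells it gave 0.580 each, which is only the ratio of these floors, since these cells make the immunoglobulin used for scaling, so nothing is read from it. WT cells of 1 mouse alone gave 0.999 to 1.59 for Il18r1 in smooth muscle or myofibroblast-like cells. Il1r2 in ILC3-like cells was 0.775 within the cluster that held most WT cells, also compared after seeing the data. At resolution 1.2 Il12rb2 in other CD4 T or NKT-like cells was at 0.926, as most cells of the larger cluster then fell into clusters without a name. No paired analysis was possible because each genotype had 1 library.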
